A study of Mus musculus with 6 samples.

Results

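The genes described here encode the machinery that tethers, docks, primes and fuses secretory vesicles: the SNARE proteins (syntaxins, the SNAP-25 family and VAMPs), their syntaxin-binding partners, priming factors and complexins, synaptotagmins and synaptotagmin-like proteins, the exocyst, and 6 added genes, Rab27a, Rab27b, Rab3d, Rab37, Rabgef1 and Lyst. They were chosen by gene symbol, with earlier results of these data known, and 84 of 55809 gene rows matched. Genes with fewer than 60 counts summed over all libraries were dropped, which left 61, and all 61 also passed the count filter of the test. Just inside the limit of 60 were Syt3 with 78 counts, Stxbp3-ps with 86 and Syt7 with 132, and just outside it were Syt9 with 42 and Syt8 with 36.

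The libraries were made from polyadenylated RNA of mast cells that had been sorted out of fetal skin on embryonic day 18.5 (mouse, genotype C57BL6J). In the prenatal stress group (3 libraries), pregnant dams were held in tubes under a bright light for 30 minutes, 3 times a day, from embryonic day 13 to 18 by the protocol and from 13.5 to 18.5 by the design text. In the control group (3 libraries), dams were not disturbed. Each library pooled 4 mice, 12 per group, and the labels say that both sexes were used. The number of litters behind a pool is not stated, so a p-value here speaks of the variation among pools. The sort kept CD45-positive cells carrying CD117 and ST2 and lacking F4/80 and CD64.

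Mast cells store histamine, heparin and proteases in granules and release them when the granule membrane fuses with the plasma membrane or with another granule. Fusion takes place when a VAMP on the granule and a syntaxin and a SNAP-25 relative on the target membrane wind into a 4-helix bundle, under the guidance of syntaxin-binding (Munc18) and Munc13 proteins. Rab27 proteins and their effectors bring granules to the membrane, and synaptotagmins and complexins adjust fusion to calcium.

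The libraries held 51710555 to 57806119 counts in genes in the prenatal stress group and 54616570 to 74735139 in the control group. Levels are given in CPM, the count scaled by library size and trimmed-mean factors, and fold changes are prenatal stress over control. The 11 mast cell markers summed to 85248 to 102740 CPM in the prenatal stress libraries and to 58805 to 71066 CPM in the control libraries. Of these 11, 7 were called higher and 0 lower, with log2 fold changes from 0.40 for Cma1 to 2.26 for Fcer1a. Between these lay Cpa3 (carboxypeptidase A3) at 0.55, Ms4a2 (the beta chain of the immunoglobulin E receptor) at 0.58 and Il1rl1 (ST2) at 0.45. Kit (0.23) and Gata2 (0.26) were among those not called. Macrophage transcripts were also present: 16 markers summed to 7018, 6479 and 9588 CPM in prenatal stress libraries 1, 2 and 3, and to 8417, 9726 and 9791 CPM in control libraries 1, 2 and 3, so prenatal stress library 3 lay at the control level and the other 2 below it. Of these 16, Cd68 was called higher, Cx3cr1 was called lower, and none was at 0. Prenatal stress library 1 stood apart in Xist, at 67.1 CPM, where the other 5 libraries held 669 to 1456 CPM. Of 5 markers of T and innate lymphoid cells, Il7r was called higher, at 48.8 to 58.1 CPM in the prenatal stress libraries and 18.1 to 26.2 CPM in the control libraries. The T cell gene Cd3g lay below all controls in the prenatal stress libraries without a call. It was at 1.02 to 1.29 CPM there, against 7.54, 2.47 and 1.44 CPM in control libraries 1, 2 and 3. Cd3d overlapped, at 0.02 to 0.07 CPM in the prenatal stress libraries and 0.04 to 0.69 CPM in the control libraries. Cd3e had 0 counts in the prenatal stress libraries, against 0.09 to 0.96 CPM in the control libraries. Cd3d and Cd3e did not pass the count filter and were not tested. The fifth, Gata3, overlapped between the groups. The part of mast cell or lymphoid cell content in the results below was not tested. In bulk RNA, fewer cells of a type and less RNA per cell cannot be told apart.

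After prenatal stress 6 release genes were higher and 0 were lower. They were Rab27b, Rabgef1, Sytl3, Unc13b, Vamp4 and Syt4, with fold changes from 1.30 (Vamp4) to 3.67 (Syt4). The calls come from edgeR's quasi-likelihood test over 16716 genes with Benjamini-Hochberg adjustment at 0.05. They were 9.84% of the 61 genes, where 6.19% of all genes tested passed in either direction, 4.34% as higher and 1.85% as lower. Among genes at a mean of 10 CPM or more, 5 of 42 release genes passed, all as higher (11.9%), where 9.09% of all genes at that level passed, 6.42% as higher. At an unadjusted p under 0.05 there were 16 release genes, 12 higher and 4 lower, or 26.2% against 24.8% of all genes tested. The median log2 fold change was 0.07 over the release genes and -0.00387 over all genes tested. The prenatal stress libraries lay above all control libraries in 15 of the 61 genes and below them in 7, or 24.6% above and 36.1% in all, where 16.0% of all genes tested lay above, 14.5% below and 30.6% in either direction. The shares called higher and lying above the controls were larger than over all genes. These differences were not tested, and the set was chosen with earlier results of these data known.

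**Figure D1:**
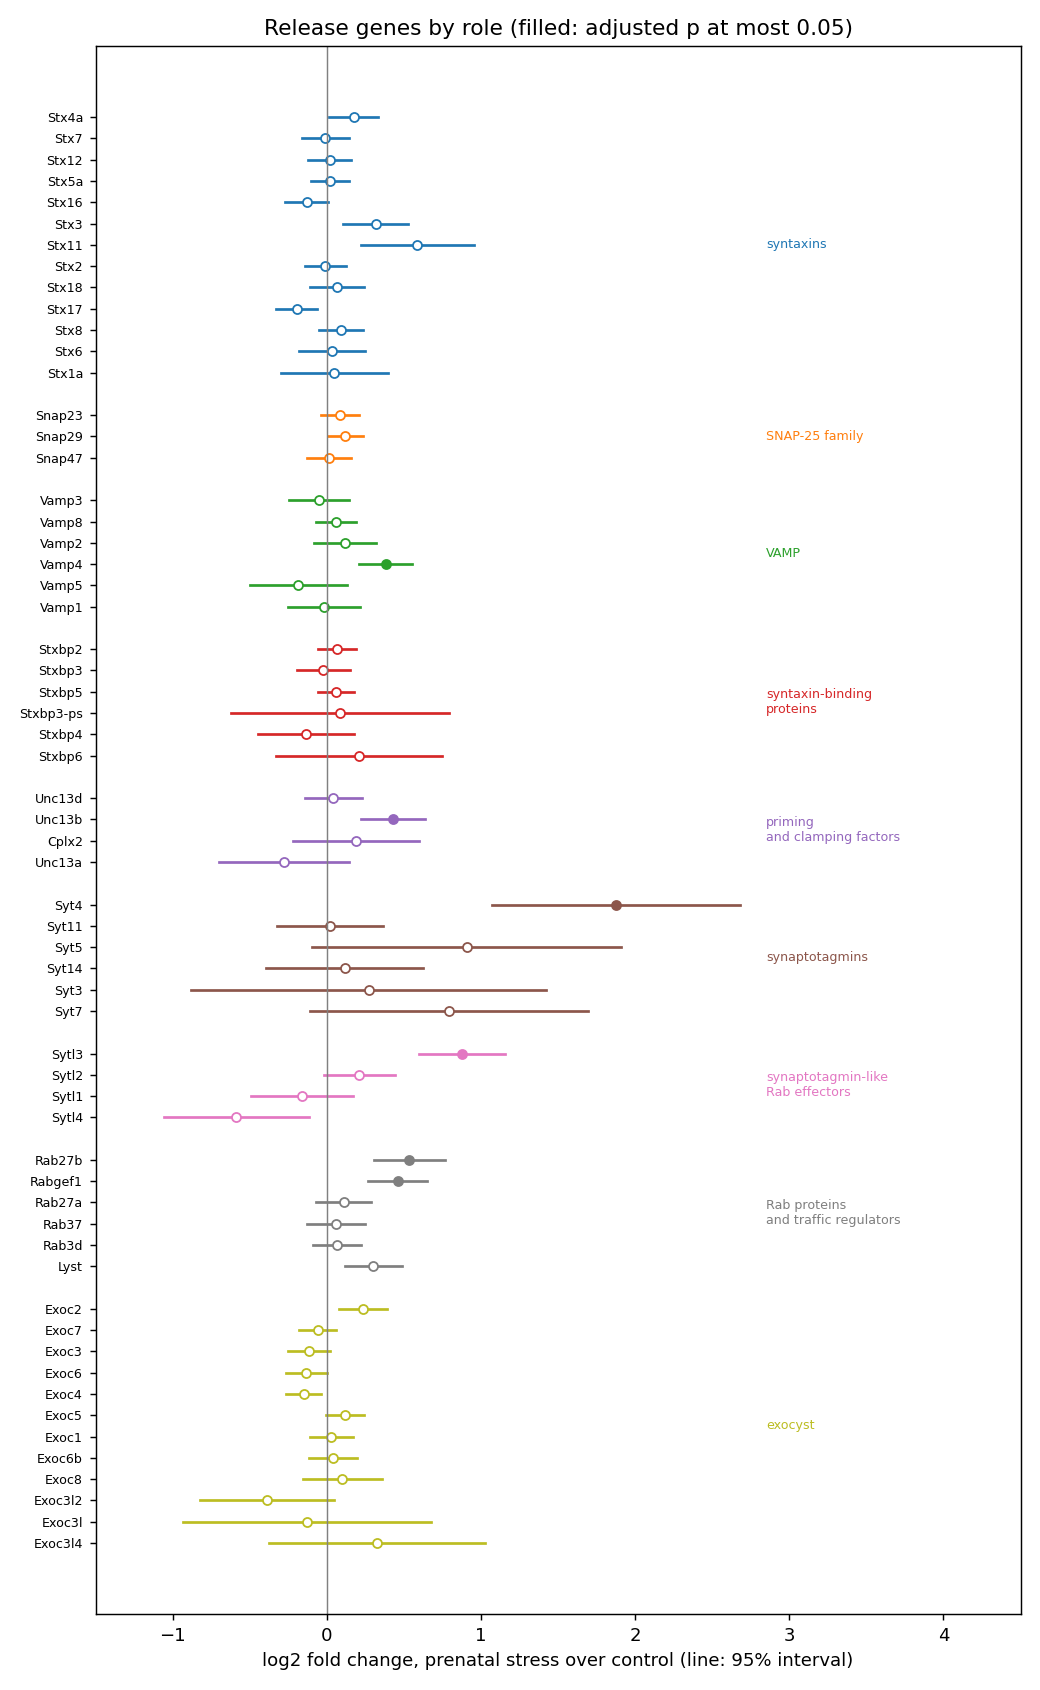
Log2 fold change (horizontal axis, prenatal stress over control) of the release genes, grouped by role (1 gene not shown), each with its 95% interval as a line. Filled circles mark the 6 genes with an adjusted p of 0.05 or less, and all 6 lie to the right of 0.

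Sytl3 had the highest fold change of the called genes above 10 CPM. It encodes a synaptotagmin-like protein that binds Rab27. Sytl3 was at 134, 154 and 142 CPM in prenatal stress libraries 1, 2 and 3, against 89.9, 62.4 and 81.9 CPM in control libraries 1, 2 and 3. The groups did not overlap, and the lowest prenatal stress value was well above the highest control value. The log2 fold change was 0.88 ± 0.12 (SE; edgeR adjusted p = 0.00897). Leaving out each library in turn did not end this call (adjusted p up to 0.0401), nor did the macrophage list mean as a covariate (0.79, adjusted p = 0.0116) or any of the other 9 alternative fits. Of the 75-base stretches of Sytl3 transcripts, 18.8% also occur in the predicted genes Gm29719 and Gm29721, so its count is uncertain to that extent. Gm29719 held 166 to 206 counts in the prenatal stress libraries and 101 to 170 in the control libraries, and Gm29721 held 130 to 162 in the prenatal stress libraries and 68 to 120 in the control libraries.

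Rab27b, the Rab protein that holds granules at the plasma membrane of mast cells, was the most abundant release gene. It was at 1111, 1309 and 1044 CPM in the prenatal stress libraries, against 858, 714 and 822 CPM in the control libraries. All 3 prenatal stress values were above the controls. The log2 fold change was 0.53 ± 0.10 (SE; edgeR adjusted p = 0.0224). Rab27b took 23.9% to 27.8% of all counts of the 61 genes in the prenatal stress libraries and 19.9% to 21.8% in the control libraries. Its paralogue Rab27a was at 77.9, 77.3 and 67.7 CPM in the prenatal stress libraries and at 74.3, 63.4 and 68.9 CPM in the control libraries, which overlapped. The log2 fold change of Rab27a was 0.11, with a 95% interval from -0.07 to 0.29. Per exon length, Rab27b stood at 5.18, 6.15 and 5.60 times Rab27a in the prenatal stress libraries, against 4.19, 4.09 and 4.34 times in the control libraries. These ratios do not depend on the scaling between libraries.

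Rabgef1, also called Rabex-5, activates Rab5 on endosomes and dampens signalling from the immunoglobulin E receptor in mouse mast cells. It was at 413, 421 and 373 CPM in the prenatal stress libraries, against 299, 261 and 318 CPM in the control libraries. The groups did not overlap (log2 fold change 0.46 ± 0.08, SE; edgeR adjusted p = 0.0203). Lyst, the gene mutated in beige mice with giant granules, was at 72.2, 68.7 and 57.8 CPM in the prenatal stress libraries and at 55.6, 52.7 and 52.8 CPM in the control libraries. Library 3 of the prenatal stress group was close to the controls, and Lyst did not pass (0.30 ± 0.08, adjusted p = 0.0643 by edgeR). The remaining Rab genes, Rab37 and Rab3d, are both found on secretory granules. Rab37 was at 70.4, 77.4 and 62.4 CPM in the prenatal stress libraries and at 70.7, 63.2 and 67.5 CPM in the control libraries. Rab3d was at 32.8, 32.3 and 30.2 CPM in the prenatal stress libraries and at 30.7, 28.3 and 32.0 CPM in the control libraries. Both overlapped between the groups, and neither passed. All 6 genes of the Rab and traffic group had positive log2 fold changes, from 0.06 to 0.53, but 3 (Rab27a, Rab37 and Rab3d) turned negative when libraries were scaled by their totals alone.

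**Figure D2:**
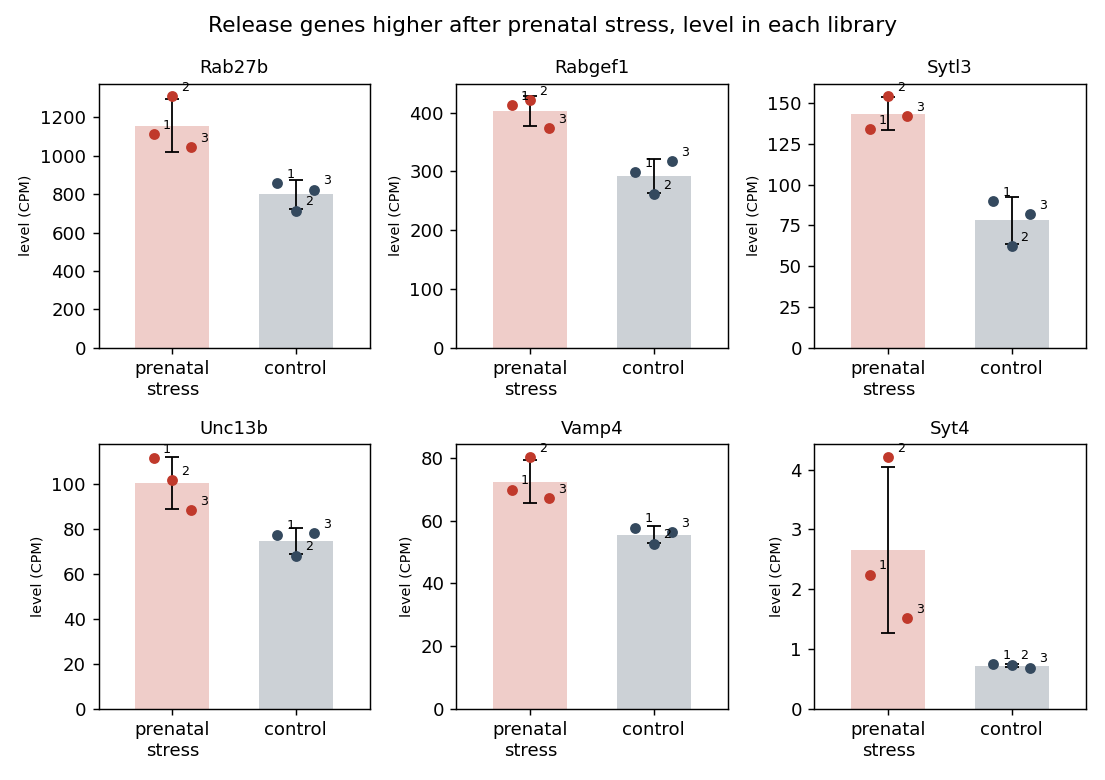
Level (CPM, vertical axis from 0) of the 6 release genes called higher, prenatal stress left and control right. Points are libraries, numbered 1 to 3, bars are means and lines are SD (n = 3). In each panel the lowest prenatal stress library lies above the highest control library.

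Unc13b, which encodes the priming factor Munc13-2, was at 111, 102 and 88.3 CPM in the prenatal stress libraries, against 77.4, 68.1 and 78.2 CPM in the control libraries. The groups did not overlap (log2 fold change 0.43 ± 0.09, SE; edgeR adjusted p = 0.0318). Its relative Unc13d (Munc13-4), which mouse mast cells need for degranulation, was at 104, 97.9 and 87.2 CPM in the prenatal stress libraries and at 97.3, 85.2 and 98.4 CPM in the control libraries. These ranges overlapped almost fully, and the 95% interval of the log2 fold change ran from -0.14 to 0.23. Per exon length, Unc13b stood at 0.220, 0.214 and 0.208 times Unc13d in the prenatal stress libraries and at 0.164, 0.164 and 0.164 times in the control libraries. The annotated exons of Unc13b span 22746 bases over all its transcripts, so its level per length is low if shorter transcripts prevail. Cplx2, a complexin that promotes exocytosis in a rat mast cell line, was at 5.37, 6.11 and 4.07 CPM in the prenatal stress libraries and at 4.61, 3.69 and 5.34 CPM in the control libraries, with overlap. Unc13a, the main neuronal Munc13, was at 1.10 to 1.53 CPM in the prenatal stress libraries and 1.53 to 1.65 CPM in the control libraries, and did not pass (adjusted p = 0.377 by edgeR).

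Among the VAMPs, the SNAREs of the vesicle membrane, 1 of 6 passed. Vamp4, a SNARE of the trans-Golgi network and endosomes, was at 69.9, 80.4 and 67.3 CPM in the prenatal stress libraries, against 57.8, 52.7 and 56.4 CPM in the control libraries. The groups did not overlap (log2 fold change 0.38 ± 0.08, SE; edgeR adjusted p = 0.0257). Vamp8, the VAMP that mouse mast cell granules use for regulated release, was at 88.3, 85.4 and 93.4 CPM in the prenatal stress libraries and at 81.9, 87.3 and 86.7 CPM in the control libraries. The interval of its log2 fold change, from -0.07 to 0.19, reaches 1.14-fold at its upper end. Vamp3, of recycling endosomes, was at 151, 151 and 185 CPM in the prenatal stress libraries and at 161, 169 and 175 CPM in the control libraries. It was highest in prenatal stress library 3, which held the most macrophage transcripts of its group but fewer than control libraries 2 and 3. The part of macrophage transcripts in the Vamp3 level was not tested. Vamp2, the synaptic VAMP, was at 71.3, 58.2 and 58.9 CPM in the prenatal stress libraries and at 59.8, 53.5 and 60.5 CPM in the control libraries. Neither passed, and Vamp1 and Vamp5 had log2 fold changes of -0.02 and -0.19 with adjusted p of 0.930 and 0.436 by edgeR.

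Promoter sequence is shown for the called genes with an entry in the RefSeq table (build GRCm38.p6) that can be printed, to let their starts be compared. Each window runs from 250 bases before to 50 after an annotated start, 5′ to 3′ on the gene's strand, and for Rabgef1 and Vamp4 it is the first of several listed. Capitals mark matches on either strand to GATAA (the core bound by GATA factors), CACGTG and CATGTG (E-boxes of the kind MITF binds) and TGANTCA (the AP-1 site).
Sytl3, chr17:6658809-6659108, plus strand: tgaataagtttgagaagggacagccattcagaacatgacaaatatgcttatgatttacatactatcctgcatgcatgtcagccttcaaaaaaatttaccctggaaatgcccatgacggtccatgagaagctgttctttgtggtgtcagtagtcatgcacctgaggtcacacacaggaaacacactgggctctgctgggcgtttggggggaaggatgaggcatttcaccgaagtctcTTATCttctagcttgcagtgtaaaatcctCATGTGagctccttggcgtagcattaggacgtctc
Rabgef1, chr5:130171569-130171868, plus strand: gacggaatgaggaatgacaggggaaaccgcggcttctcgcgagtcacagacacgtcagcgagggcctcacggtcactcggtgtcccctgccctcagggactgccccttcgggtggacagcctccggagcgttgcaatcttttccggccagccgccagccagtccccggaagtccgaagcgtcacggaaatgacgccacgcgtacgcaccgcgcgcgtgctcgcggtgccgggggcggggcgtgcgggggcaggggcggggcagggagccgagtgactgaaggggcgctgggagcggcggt
Unc13b, chr4:43058703-43059002, plus strand: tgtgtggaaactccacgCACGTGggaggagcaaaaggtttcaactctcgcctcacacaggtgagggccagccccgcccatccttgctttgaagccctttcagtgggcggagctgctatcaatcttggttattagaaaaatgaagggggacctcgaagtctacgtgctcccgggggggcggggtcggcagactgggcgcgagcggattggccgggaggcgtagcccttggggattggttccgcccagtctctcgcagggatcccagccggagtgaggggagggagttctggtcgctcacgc
Vamp4, chr1:162570265-162570564, plus strand: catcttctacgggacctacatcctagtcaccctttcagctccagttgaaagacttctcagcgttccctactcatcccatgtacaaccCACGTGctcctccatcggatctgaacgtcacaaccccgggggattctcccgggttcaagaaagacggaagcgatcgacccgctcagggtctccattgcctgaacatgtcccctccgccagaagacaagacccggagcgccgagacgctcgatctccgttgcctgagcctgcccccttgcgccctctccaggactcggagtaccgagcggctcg
Sytl3 held GATAA from base 237 (read here as its complement on the other strand) and CATGTG from base 266. CACGTG occurred in Unc13b from base 18 and in Vamp4 from base 88, and the Rabgef1 window held no match. The other listed Vamp4 window, chr1:162570578-162570877, held no match either. No matches overlapped each other. Of all 32851 windows of this length, 25.4% held GATAA, 7.15% CACGTG, 14.2% CATGTG and 7.81% TGANTCA. Of the 62 windows of 49 release genes the shares were 16.1%, 16.1%, 4.84% and 1.61%. The release gene windows were richer in G and C, with a median of 60.5% against 52.7% in all windows. The Sytl3 window was poorer, at 46.0%.

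Synaptotagmins, the calcium sensors of regulated fusion, were scarce: 6 of 17 matched genes reached 60 counts, and none exceeded 5 CPM in any library. Syt4, a synaptotagmin of dense-core vesicles, had 113, 227 and 84 counts in prenatal stress libraries 1, 2 and 3, against 57, 43 and 39 counts in control libraries 1, 2 and 3. That is 2.24, 4.21 and 1.51 CPM in the prenatal stress libraries and 0.742, 0.731 and 0.687 CPM in the control libraries. The prenatal stress libraries spread widely, all above the controls, which lay together (log2 fold change 1.88 ± 0.36, SE; edgeR adjusted p = 0.0220). A predicted gene on the other strand, Gm26658, overlaps 14.5% of the Syt4 exons and held 0 to 2 counts per library. The melanocyte markers Dct, Mlana, Pmel, Tyrp1 and Tyr moved with it. All 5 of 5 were called higher, none was at 0, and they summed to 39.2, 69.8 and 28.5 CPM in the prenatal stress libraries against 19.5, 13.9 and 13.9 CPM in the control libraries. Syt4 amounted to 5.72%, 6.04% and 5.31% of that sum in the prenatal stress libraries and to 3.81%, 5.28% and 4.93% in the control libraries. Schwann cell markers followed the same order among the prenatal stress libraries: 4 genes summed to 4.76, 8.89 and 3.35 CPM there and to 3.39, 2.98 and 2.98 CPM in the control libraries. Sox10, shared by both lineages, lay above all controls and did not pass (log2 fold change 1.40, edgeR adjusted p = 0.0576), and 0 of the 4 were called. The 5 fibroblast markers held the same order, at 91.2, 203 and 84.7 CPM in prenatal stress libraries 1, 2 and 3. In control libraries 1, 2 and 3 they summed to 96.6, 97.9 and 75.9 CPM, and 0 were called. The 3 endothelium markers were also highest in prenatal stress library 2 (48.1 CPM), the 4 keratinocyte markers in library 1 (9.88 CPM). The part of melanocyte, Schwann cell or other background transcripts in the Syt4 result was not tested. Of 7 neuron markers 5 passed the count filter and 0 were called, and the 7 summed to 1.53 to 2.10 CPM in the prenatal stress libraries and 1.74 to 2.19 CPM in the control libraries.

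**Figure D3:**
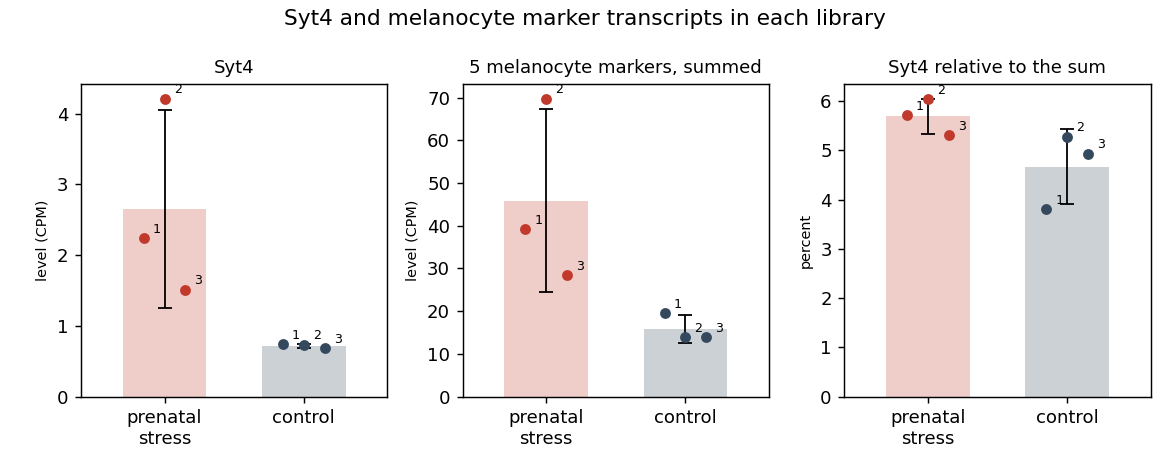
Syt4 level (left, CPM), summed level of 5 melanocyte markers (middle, CPM) and Syt4 as a percentage of that sum (right), prenatal stress left and control right in each panel. Points are libraries numbered 1 to 3, bars are means and lines are SD (n = 3). Prenatal stress library 2 is highest in all 3 panels, and library 3 is the lowest prenatal stress library in each.

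The remaining synaptotagmins did not pass. Syt3 was at 0.16, 0.19 and 0.38 CPM in the prenatal stress libraries and at 0.23, 0.27 and 0.09 CPM in the control libraries, from 8 to 21 counts and 5 to 18 counts per library. Syt2, which mouse mast cells in culture use for degranulation, had 4 counts in all 6 libraries together, and Syt9 had 42. Syt11, which does not bind calcium, was at 1.92, 2.13 and 1.96 CPM in the prenatal stress libraries and at 1.93, 1.91 and 2.11 CPM in the control libraries. Syt5 and Syt7 had positive log2 fold changes of 0.91 and 0.79 that did not pass (adjusted p = 0.236 and 0.250 by edgeR), on few counts. Syt5 had 16 to 48 counts in the prenatal stress libraries and 12 to 25 in the control libraries, and Syt7 had 21 to 33 in the prenatal stress libraries and 8 to 23 in the control libraries. The SNAREs and partners of fast synaptic release were as scarce: Snap25 had 6 counts over all libraries, Syt1 had 13 and Cplx1 had 3. Cplx3, Cplx4, Exoc1l, Stx19 and Syt10 had 0 counts of 351694112, which allows a level of up to 0.00853 CPM. Such limits cover counting error only, since the reads carry no molecular identifiers.

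None of the other 3 synaptotagmin-like genes passed. Sytl2, which also binds Rab27, was at 100.4, 101.1 and 83.5 CPM in the prenatal stress libraries and at 91.8, 72.1 and 82.1 CPM in the control libraries. The groups overlapped (log2 fold change 0.21, 95% interval -0.02 to 0.44). Per exon length, Sytl3 stood at 3.67, 4.20 and 4.68 times Sytl2 in the prenatal stress libraries, against 2.70, 2.38 and 2.75 times in the control libraries. Sytl4, or granuphilin, was at 0.65, 0.67 and 0.77 CPM in the prenatal stress libraries and at 1.17, 0.95 and 1.02 CPM in the control libraries. Its log2 fold change was -0.59 ± 0.21 (SE), and it did not pass (adjusted p = 0.124 by edgeR). Sytl1 averaged 2.72 ± 0.10 CPM in the prenatal stress libraries and 3.05 ± 0.44 CPM in the control libraries (SD, n = 3 each).

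None of the 13 syntaxins, the SNAREs of the target membrane, passed at the threshold, and 4 had an unadjusted p under 0.05. Stx11, a syntaxin of blood cells that pairs with Munc18-2, was at 36.3, 57.0 and 59.6 CPM in prenatal stress libraries 1, 2 and 3, against 35.7, 33.6 and 32.5 CPM in the control libraries. Library 1 of the prenatal stress group, the one low in Xist, lay at the control level, and the other 2 lay far above it (log2 fold change 0.59 ± 0.16, SE; edgeR adjusted p = 0.0650). Without that library the value was 0.77 and passed (adjusted p = 0.00683). Stx3, a syntaxin of mast cell granule fusion, was at 79.8, 80.5 and 68.7 CPM in the prenatal stress libraries and at 67.5, 54.2 and 62.2 CPM in the control libraries. The groups did not overlap, and Stx3 did not pass (0.32 ± 0.09, adjusted p = 0.0779 by edgeR). Stx4a, the plasma membrane syntaxin that pairs with Snap23, was at 103, 106 and 104 CPM in the prenatal stress libraries and at 97.7, 82.8 and 97.2 CPM in the control libraries (0.17 ± 0.07, adjusted p = 0.173 by edgeR). These groups did not overlap either. Stx17, the autophagosome syntaxin, was the only syntaxin among the 4 with a negative value, at 25.3, 24.1 and 23.6 CPM in the prenatal stress libraries and 27.4, 28.1 and 28.1 CPM in the control libraries (-0.20 ± 0.06, adjusted p = 0.0825 by edgeR). Stx7, of late endosomes, was at 106, 103 and 119 CPM in the prenatal stress libraries and at 106, 112 and 112 CPM in the control libraries. Stx5a, of the Golgi, was at 109.7, 108 and 107 CPM in the prenatal stress libraries and at 108, 101 and 110.5 CPM in the control libraries. Both overlapped, with log2 fold changes of -0.01 and 0.02.

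Of 3 measured SNAP-25 family genes and 7 syntaxin-binding genes 0 passed, and at an unadjusted p under 0.05 there was 1, Snap29. Snap23, the SNAP-25 relative that mast cells use, was at 194, 207 and 210 CPM in the prenatal stress libraries and at 192, 189 and 194 CPM in the control libraries. The 95% interval of its log2 fold change ran from -0.04 to 0.21. Snap29 lay above all controls in the prenatal stress libraries, at 86.1, 86.1 and 84.2 CPM against 76.0, 78.5 and 81.3 CPM in the control libraries (log2 fold change 0.12, edgeR adjusted p = 0.187). Stxbp2 (Munc18-2), the main Munc18 of mast cell degranulation, was at 213, 211 and 209 CPM in the prenatal stress libraries and at 206, 192 and 208 CPM in the control libraries. The interval of its log2 fold change was -0.06 to 0.19. Stxbp5, or tomosyn, a brake on SNARE assembly, was at 78.4, 74.4 and 75.8 CPM in the prenatal stress libraries and at 74.7, 70.6 and 73.8 CPM in the control libraries. Its groups overlapped. Stxbp3, a widely expressed syntaxin-binding protein, was at 35.2, 33.8 and 40.6 CPM in the prenatal stress libraries and at 36.0, 37.7 and 37.8 CPM in the control libraries. Its groups also overlapped. Stxbp3 shares 7.76% of its 75-base stretches with its pseudogene Stxbp3-ps, so both counts are uncertain.

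The exocyst is the complex of 8 subunits that tethers vesicles before fusion. The 12 measured genes named after it held no call, and 3 had an unadjusted p under 0.05. They include the relatives Exoc6b, Exoc3l, Exoc3l2 and Exoc3l4, the last 3 with 239, 398 and 178 counts over all libraries. The summed level of the 12 was 485 to 495 CPM in the prenatal stress libraries and 479 to 489 CPM in the control libraries. These 12 genes did not share a direction: 6 had positive and 6 negative log2 fold changes, with a median of -0.02. Scaled by library totals alone, 3 were positive and 9 negative. Exoc2 was at 91.9, 92.7 and 82.8 CPM in the prenatal stress libraries, against 78.9, 69.9 and 78.2 CPM in the control libraries. It lay above all controls and did not pass (0.24 ± 0.07, adjusted p = 0.0811 by edgeR). Exoc4 was at 70.9, 72.1 and 74.4 CPM in the prenatal stress libraries, against 81.9, 79.9 and 79.4 CPM in the control libraries. It lay below all controls, also without passing (-0.15 ± 0.05, adjusted p = 0.105 by edgeR). Exoc5 was at 98.4, 106 and 106 CPM in the prenatal stress libraries and at 95.8, 97.7 and 92.9 CPM in the control libraries (0.12, edgeR adjusted p = 0.225).

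Set per exon length, the release genes can be ordered by level, though annotated exons may exceed those of the expressed transcripts. The libraries also held macrophage transcripts, so the order is that of the libraries, not of mast cells alone. Levels here are CPM per kilobase of annotated exon. Rab27b came first at 108 ± 12.9 in the prenatal stress libraries and 74.7 ± 7.02 in the control libraries, and Rabgef1 second at 96.5 ± 6.11 in the prenatal stress libraries and 70.2 ± 6.96 in the control libraries, within 1 SD of Rab27b in both groups. Next came Vamp3 at 56.2 ± 6.71 in the prenatal stress libraries and 58.3 ± 2.38 in the control libraries, Stxbp2 at 50.8 ± 0.50 in the prenatal stress libraries and 48.6 ± 2.09 in the control libraries, and Snap23 at 47.4 ± 1.93 in the prenatal stress libraries and 44.6 ± 0.62 in the control libraries. Vamp3 and Stxbp2 lay within 1 SD of each other in the prenatal stress libraries. Stx4a stood at 44.1 ± 0.67 in the prenatal stress libraries and 39.2 ± 3.57 in the control libraries, and Vamp8 at 38.5 ± 1.76 in the prenatal stress libraries and 36.9 ± 1.28 in the control libraries (SD, n = 3 for each value). Of the 61 genes, Sytl3 ranked 8 in the prenatal stress libraries and 14 in the control libraries, and Unc13d ranked 12 in the prenatal stress libraries and 11 in the control libraries. Vamp4 ranked 16 in the prenatal stress libraries and 18 in the control libraries, Unc13b 34 in the prenatal stress libraries and 38 in the control libraries, and Syt4 48 in the prenatal stress libraries and 54 in the control libraries.

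**Figure D4:**
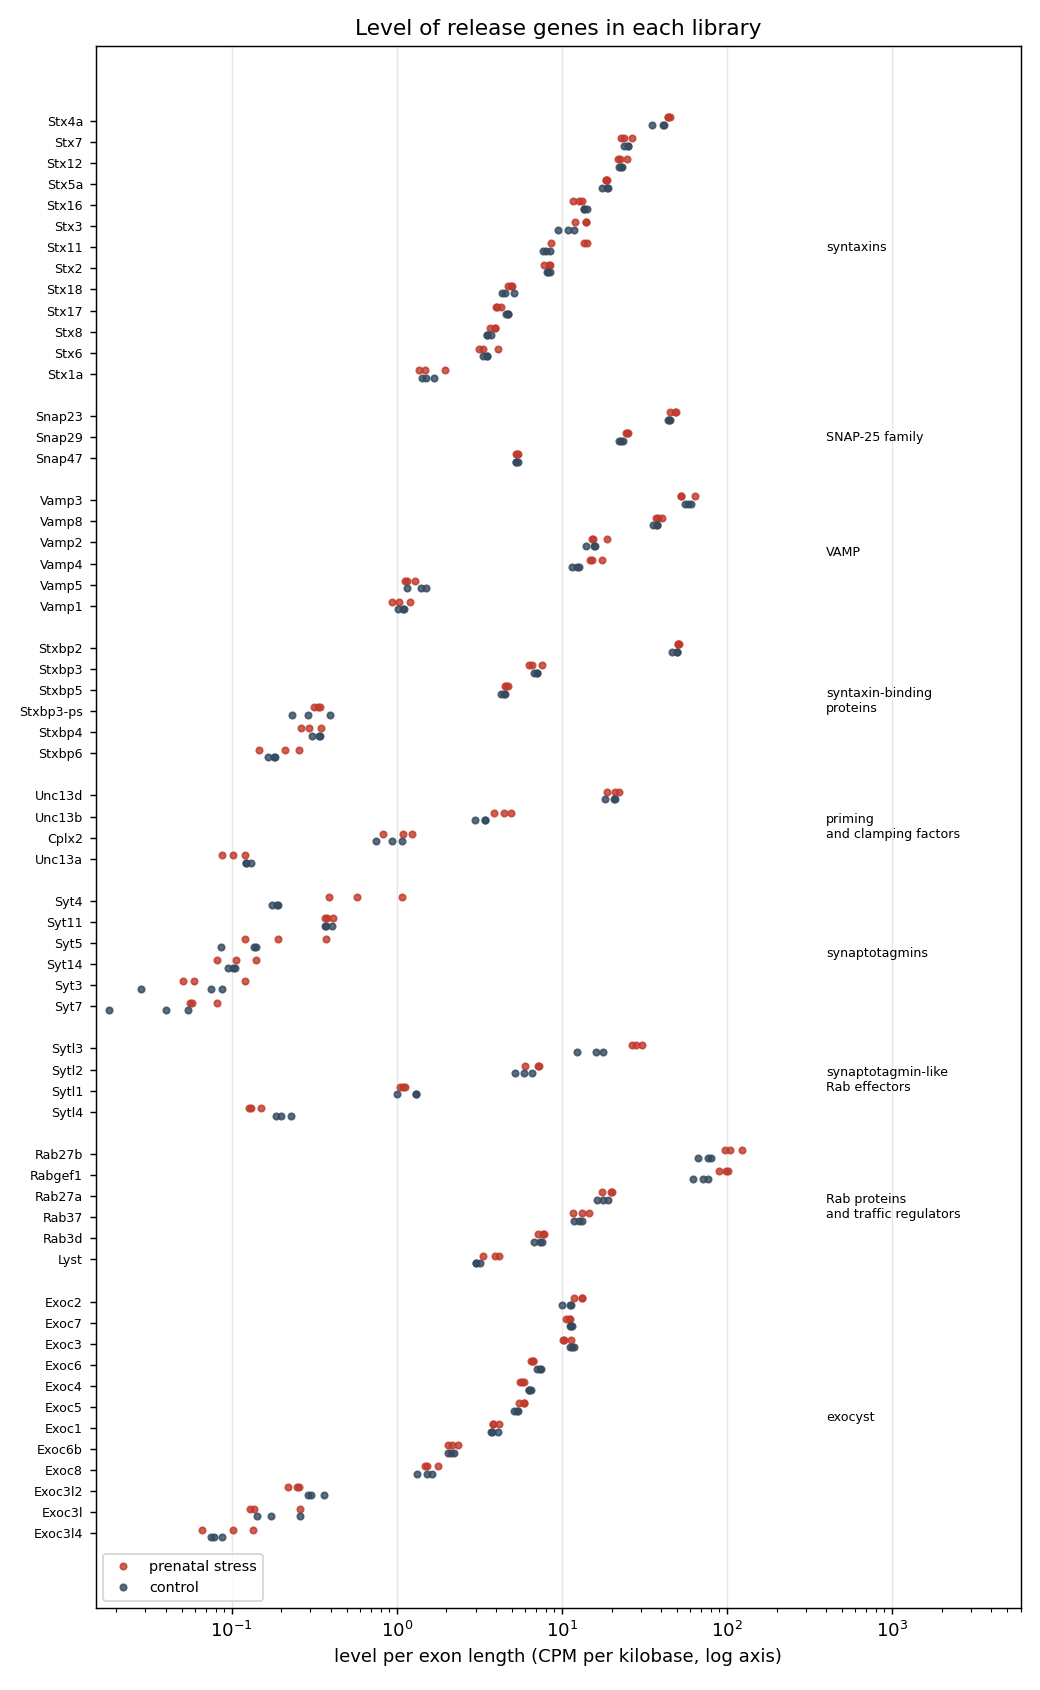
Level per exon length (CPM per kilobase, log axis) of the release genes in each library, grouped by role (1 gene not shown), prenatal stress above control in each row. The levels span from 0.018 (Syt7 in control library 2) to 123 (Rab27b in prenatal stress library 2).

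Of 87 measured genes of vesicle fusion, recycling and secretory lysosome traffic outside the set, taken from a list of 100, 6 were higher, 0 were lower and 81 did not pass (6.90%, against the 6.19% of all genes). The strongest by p was Bloc1s5, a subunit of the BLOC-1 complex of lysosome-related organelles, at 82.5, 88.3 and 82.2 CPM in the prenatal stress libraries against 62.3, 58.3 and 64.9 CPM in the control libraries (log2 fold change 0.45, edgeR adjusted p = 0.00819). Rab38, which carries cargo to melanosomes, was at 10.0, 13.3 and 10.8 CPM in the prenatal stress libraries against 7.03, 4.78 and 6.27 CPM in the control libraries (0.91, edgeR adjusted p = 0.0169). The others were Ap3s1, a subunit of the AP-3 adaptor (0.38), Rab32, a relative of Rab38 (0.33), Snapin, a SNAP-25 binding protein (0.26), and Mlph, the Rab27a effector melanophilin (0.48, edgeR adjusted p = 0.0496). Of the exons of Snapin, 15.5% are overlapped by a gene on the other strand. Genes such as Rab38, Rab32 and Mlph also act in melanocytes, whose 5 markers were higher in the same libraries. The part of melanocyte transcripts in the results for any of these 6 genes was not tested.

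The calls other than Sytl3 were lost in most fits that left out 1 library. Rab27b kept its call in 2 of the 6 fits that left out 1 library, Rabgef1 in 2, Syt4 in 2, Unc13b in 1 and Vamp4 in 1. Each of the 5 lost it without prenatal stress library 1, the one low in Xist, and also without control library 2. Without prenatal stress library 2 all of them but Syt4 lost it. Without control library 1 all but Rab27b did, and without control library 3 all but Rabgef1. The reason for these losses was not tested. Of the controls, library 2 had the lowest summed mast cell markers (58805 CPM) and the lowest Rab27b, Rabgef1, Unc13b and Vamp4 levels. All signs stayed positive, and the log2 fold change ranged from 0.43 to 0.60 for Rab27b, 0.38 to 0.52 for Rabgef1, 0.34 to 0.51 for Unc13b, 0.30 to 0.43 for Vamp4 and 1.37 to 2.16 for Syt4. Without prenatal stress library 3, the one with macrophage transcripts at the control level, all 6 passed and Exoc2, Lyst and Stx3 passed as higher too. With the macrophage list mean as a covariate, Sytl3 and Syt4 passed, while Rab27b was at 0.38 (adjusted p = 0.0598 by edgeR), Rabgef1 at 0.38 (0.0599), Unc13b at 0.30 (0.0972) and Vamp4 at 0.27 (0.0694). Of the 55 genes not called, 42 had a 95% interval within a 1.5-fold change in either direction.

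**Figure D5:**
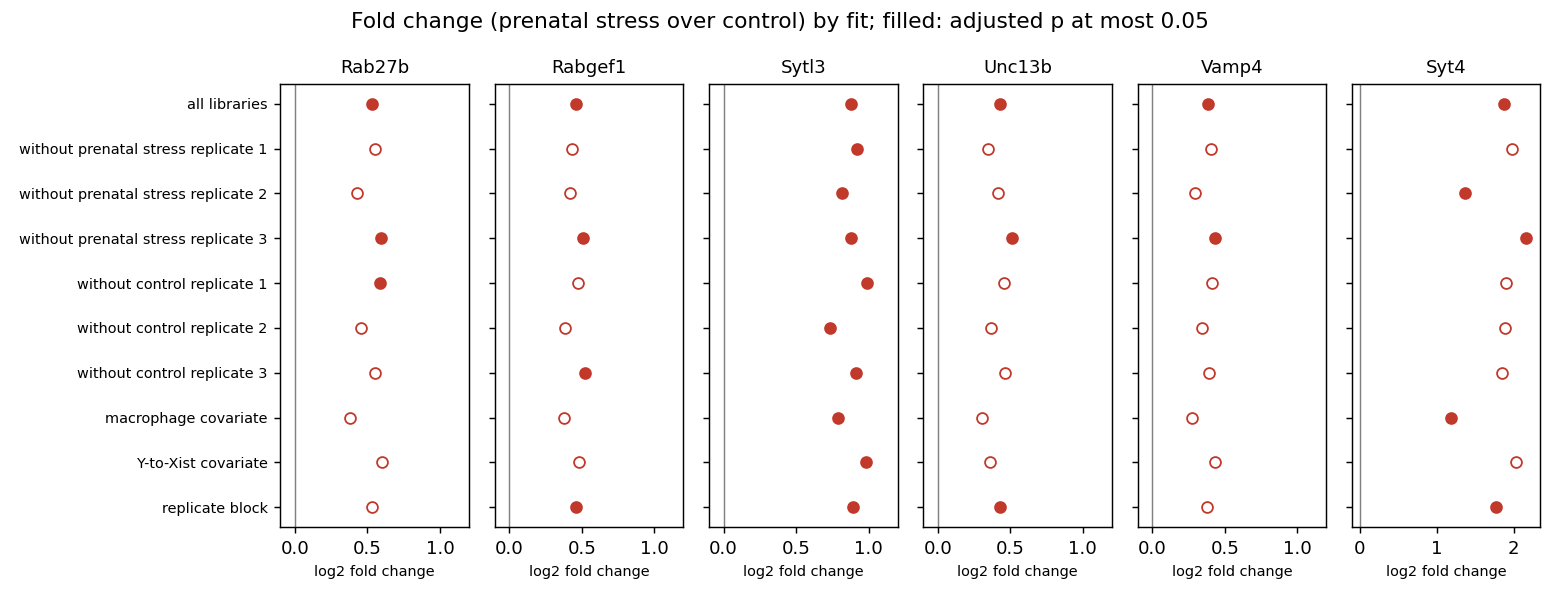
Log2 fold change (prenatal stress over control, horizontal axis) of the 6 called genes with all libraries, with each library left out, with a covariate and with the replicate number as a block. Filled circles have an adjusted p of 0.05 or less. Sytl3 is filled in every row, and every value lies right of 0.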

How the data were processed

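For each of the 6 libraries the authors deposited raw counts per gene symbol. The submitters' processing notes name STAR 2.4, HTSeq 0.9.1 and FastQC, and list GRCm39 and mm10 without saying which was used; annotation release and counting strand are not stated. The kit kept strand and the reads were paired, per the labels' protocols. The 5 tally rows that name no gene were left out: 7.83% to 9.78% of reads lay outside genes, 1.77% to 1.85% were ambiguous and 8.49% to 9.00% had no unique alignment. No pair of libraries held identical values.

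Genes were filtered with filterByExpr (minimum count 10), which left 16716, scaled with TMM factors and tested with edgeR 4.0.16's quasi-likelihood test (R 4.3.3), prenatal stress against control with no covariate. The common biological coefficient of variation was 10.4%. The test was tried on simulated counts. Exon lengths, overlaps and shared 75-base stretches came from GENCODE M21 (GRCm38), where all 61 genes matched by symbol, and promoter sequences from RefSeq (GRCm38.p6). The files write Stx4 as Stx4a, and Vamp7 was not analysed here. The members and gene lists were chosen with earlier results of these data known. Genes named with values were all called members, the 2 most counted of each role group, members known from mast cell granule release, and called genes of the further list; Stx17, Exoc4, Unc13a, Sytl1, Syt5, Syt7, Vamp1, Vamp5, Snap25, Syt1 and Cplx1 were named after their values were seen, and some members are not reported here. Same-numbered libraries of the groups did not deviate together (r from -0.02 to 0.10 over 3 pairs), so the numbers were not taken as pairs. Alternatives tried were scaling by RLE factors, upper quartiles or library totals, no filter, a stricter filter (10 counts in 3 libraries and a mean of 1 CPM), DESeq2 1.42.0, limma-voom 3.58.1, the replicate block, covariates for macrophage markers and for Y-linked over Xist counts (log2), and each library left out.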

Additional observations from a re-analysis of the deposited data

How the results depend on the processing

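Of the 6 release genes called, all 6 were called under RLE and upper-quartile factors, library totals alone, no filter, the stricter filter, DESeq2 and limma-voom. Library totals alone gave 10 calls, 6 higher and 4 lower (Exoc3, Exoc4, Exoc6 and Stx17); that scaling moves the median log2 fold change of all genes to -0.12, calls 2085 genes and makes 26.5% of calls higher, against 70.0% with TMM factors. DESeq2 called 10 release genes, all 10 higher (with Exoc2, Lyst, Stx3 and Stx11), 16 further release genes and 1989 genes in all, against 6, 6 and 1035 with edgeR. Without a filter 13 further release genes and 1933 genes passed. The macrophage covariate left 2 release genes, both of the 2 higher, and 523 genes, and the Y-to-Xist covariate 2, both higher (Sytl3 and Stx11), and 410 genes. The replicate block gave 4 release genes, without Rab27b (adjusted p = 0.0537) and Vamp4 (0.0534), and 622 genes in all; the libraries share only a number. With 1 library left out, the number of release genes called was 1 to 9, all higher and 0 lower, the number of further release genes 1 to 19 and of all genes 196 to 2647. Among the log2 fold changes of 32 named genes under 16 alternatives (Syt3 and Sytl4 did not pass the stricter filter), 429 kept their sign and side of the threshold, 33 lost and 12 gained a call, and 36, over 15 genes and with 0 calls among them, changed sign. Scaled by totals, these were Rab27a (-0.00416), Rab37 (-0.0532), Rab3d (-0.0484), Snap23 (-0.0287), Stx5a (-0.0953), Stxbp2 (-0.0487), Stxbp5 (-0.0534), Syt11 (-0.0963), Unc13d (-0.0718) and Vamp8 (-0.0541). With the macrophage covariate they were Cplx2 (-0.0733), Rab27a (-0.00955), Rab37 (-0.0861), Syt11 (-0.00713), Unc13d (-0.0614), Stx7 (0.0913), Stxbp3 (0.0962) and Vamp3 (0.0888), and with the Y-to-Xist covariate Unc13d (-0.00292), Stx7 (0.0155), Stxbp3 (0.00690) and Vamp3 (0.0182). With 1 library left out the range was -0.0213 to 0.135 for Rab37, -0.0194 to 0.0447 for Stx5a, -0.0798 to 0.0273 for Stx7, -0.112 to 0.0242 for Stxbp3, -0.0338 to 0.0662 for Syt11, -0.220 to 0.531 for Syt3 and -0.0236 to 0.104 for Unc13d. The cause of these differences was not tested, and 3 libraries per group limit what can be called.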
